A study of Mus musculus with 6 samples.

Results

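The opioid system of the medial prefrontal cortex, the part of the frontal cortex on the inner face of the hemispheres, was followed through 7 genes that encode peptide precursors and receptors. The 3 precursor genes among them were Penk, Pdyn and Pnoc, and the 4 receptor genes were Oprm1, Oprd1, Oprk1 and Oprl1. Pomc, a further opioid precursor gene, is not among the 7 and is given with the pathway genes. The 7 genes were taken by symbol from a table of 19943 genes, all 7 were listed in all 6 libraries, and all 7 passed the filter on low counts. RNA sequencing compared 3 libraries of C57BL/6 mice that were socially isolated for 3 weeks after weaning, called isolated 1 to 3 here, with 3 libraries of control C57BL/6 mice, called control 1 to 3. Neither group carried a further treatment or allele in the labels. All samples are labelled as 6 weeks old, although the series' own design text speaks of 7 weeks. The labels name neither separate animals for the libraries of a group nor a sequencing batch, so p-values reflect only how far these libraries spread, and that spread may be technical.

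Opioid peptides are cut out of larger precursor proteins and released from neurons. Proenkephalin (Penk) yields the enkephalins, which act mainly on the delta receptor (Oprd1) and the mu receptor (Oprm1). Prodynorphin (Pdyn) yields the dynorphins, the ligands of the kappa receptor (Oprk1). Prepronociceptin (Pnoc) yields nociceptin, which binds the related receptor Oprl1 and not the classical opioid receptors. All 4 receptors couple to inhibitory G proteins, which lower adenylyl cyclase activity, open potassium channels and close presynaptic calcium channels. In rodents, enkephalin is a product of the Drd2-expressing projection neurons of the striatum and dynorphin of the Drd1-expressing ones, while in the cortex the precursors are made in part by interneurons.

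The precursor genes differ in how many opioid peptides 1 transcript encodes, and these coding stretches are shown because Penk, the most abundant gene of the group, carries the largest number. The Penk transcript holds 6 stretches that encode met-enkephalin, in 5 distinct spellings, and 1 that encodes leu-enkephalin. Pdyn holds 3 leu-enkephalin stretches, each of them the start of a longer dynorphin-family peptide, and Pnoc holds 1 stretch that begins nociceptin. Every stretch follows a pair of codons for the basic residues lysine or arginine, the signal at which precursor proteases cut. Such a pair also follows 4 of the 6 met-enkephalin stretches in Penk, its leu-enkephalin stretch and all 3 stretches in Pdyn. In the sequences, which were read 5′ to 3′ from GENCODE transcripts of the build GRCm38, the capitals mark the bases that encode the enkephalin, or the first residues of nociceptin, and the lower case marks the neighbouring codons. All 3 genes lie on the minus strand.
Penk met-enkephalin, copy 1, chr4:4134328-4134354: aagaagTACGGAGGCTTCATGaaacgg
Penk met-enkephalin, copy 3, chr4:4134220-4134246: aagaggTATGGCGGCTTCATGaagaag
Penk met-enkephalin, copy 7, chr4:4133842-4133868: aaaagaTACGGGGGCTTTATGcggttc
Penk leu-enkephalin, copy 6, chr4:4133935-4133961: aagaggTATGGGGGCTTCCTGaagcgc
Pdyn leu-enkephalin, copy 1, chr2:129688232-129688258: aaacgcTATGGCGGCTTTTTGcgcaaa
Pdyn leu-enkephalin, copy 2, chr2:129688124-129688150: aaacgcTATGGGGGCTTCCTGcggcgc
Pdyn leu-enkephalin, copy 3, chr2:129688067-129688093: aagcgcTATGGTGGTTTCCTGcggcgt
Pnoc start of nociceptin, chr14:65404875-65404898: aaaaggTTTGGGGGCTTCaccggg
The leu-enkephalin stretch of Penk and the second stretch of Pdyn have the same capitals, and their flanking codons differ. These shared runs are shorter than a read of the study. In windows of 50 bases, 0 of the Pdyn or Pnoc transcript matched another gene, and 7.71% of the Penk transcript did so, in the stretch where the antisense gene A830012C17Rik overlaps 14.3% of its exon bases. A830012C17Rik was not analysed here, and since no source used here states whether counting used strand, its reads cannot be told apart from those of Penk there.

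Total expected counts were close, at 18390902 to 18606573 in the isolated libraries and 18226448 to 18544306 in the control libraries. Levels between libraries are given in CPM, counts made comparable between libraries with TMM factors, and levels between genes in the deposited FPKM, which also divides by transcript length. Slc17a7, the vesicular glutamate transporter of cortical excitatory neurons, stood at 1568 to 1909 CPM in isolated and 1563 to 1984 CPM in control libraries. Markers of striatal projection neurons were present too, at very uneven levels. The summed level of the 16 listed striatal markers, which include no opioid gene, was 909, 900 and 3465 CPM in isolated 1 to 3, against 1678, 4755 and 664 CPM in control 1 to 3, and 1 of them, Drd3, was at 0 in control 1 and control 3, was under 1 CPM in all libraries and did not pass the filter. The dopamine receptor gene Drd2 stood at 6.78, 6.36 and 50.2 CPM in the isolated libraries, against 19.1, 68.2 and 0.605 CPM in the control libraries. Isolated 3 and control 2 therefore have the highest striatal levels of their groups, and the difference of each gene is given with and without them.

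In the per-length scale, Penk was the most abundant of the 7 genes and Oprm1 the least abundant. Penk had 41.3, 35.0 and 202 FPKM in the isolated libraries, against 74.4, 285 and 21.4 FPKM in the control libraries, and it exceeded every other member in all 6. Oprl1 came next, at 15.96 to 16.87 FPKM in isolated and 13.6 to 16.2 FPKM in control libraries. It exceeded Pdyn in 5 of the 6 libraries, and in control 2 Pdyn was the higher of the pair. Pdyn lay between 10.9 and 15.6 FPKM in isolated and between 10.5 and 18.7 FPKM in control libraries, above Oprd1 in all 6. Oprd1 lay between 7.58 and 7.99 FPKM in isolated and between 7.92 and 8.46 FPKM in control libraries, above Oprk1 in all 6. Oprk1 and Pnoc were not separated, since each was the higher in 3 libraries, with Oprk1 at 1.07 to 3.65 FPKM in isolated and 1.58 to 5.52 FPKM in control libraries. Pnoc lay between 2.55 and 3.14 FPKM in isolated and between 2.08 and 2.46 FPKM in control libraries. The mu receptor Oprm1 came last, with 0.27 to 0.74 FPKM in isolated and 0.41 to 0.68 FPKM in control libraries, below Pnoc by 3.06-fold or more in every library.

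**Figure D1:**
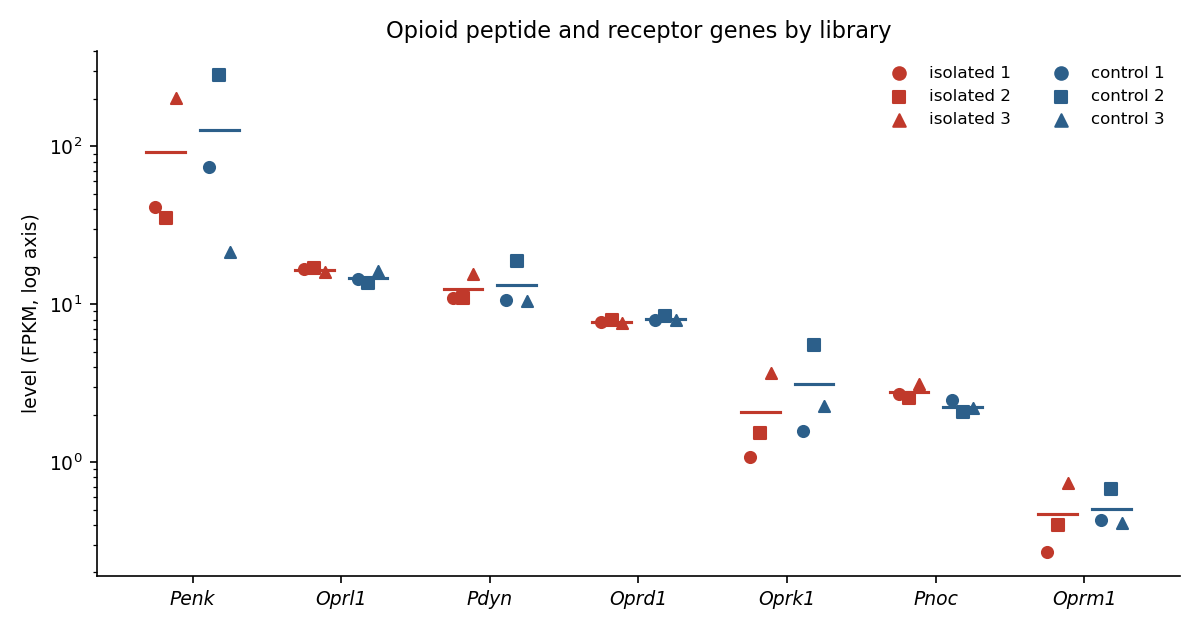
Level of the 7 opioid genes in FPKM on a log axis, with 1 point per library (isolated in red, left; control in blue, right) and a bar at the mean of each group. Penk spans 21.4 to 285 FPKM with the extremes in 2 control libraries, while the points of Oprd1 lie between 7.58 and 8.46 FPKM.

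Across the 7 genes, isolation was accompanied by no difference that passed the test. In edgeR's quasi-likelihood test with Benjamini-Hochberg adjustment, 0 of the 7 members were called at an adjusted p under 0.05, as were 0 of all 15169 tested genes (0.0%). At an unadjusted p under 0.05 stood 535 genes (3.53%), among them 1 member, Pnoc. DESeq2 called 1 gene (0.00659%), the glucocorticoid-induced Fkbp5, and no member, and limma-voom called 0 genes. Of the 7 differences, 2 were positive and 5 negative, with a median log2 difference of -0.08 for isolated over control, against -0.00 for all tested genes. The groups did not overlap in CPM for 2 members, Pnoc and Oprd1, as for 1342 of all tested genes (8.85%).

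Penk, which encodes proenkephalin (Entrez Gene 18619, chr4:4133536-4138815), varied most within the groups. It stood at 59.4, 49.8 and 285 CPM in isolated 1 to 3, against 106, 403 and 30.8 CPM in control 1 to 3. The highest and the lowest library were both controls, 13.1-fold apart, and the groups overlapped. The means were 131 ± 133 CPM in isolated and 180 ± 197 CPM in control libraries (SD, n = 3 each). Penk had a log2 difference of -0.46 (standard error 0.95, 95% interval -2.67 to 1.76), which covers folds from 0.158 to 3.38 (edgeR, adjusted p = 0.999). These libraries therefore bound the change of Penk only loosely. The log2 difference became 0.94 with control 2 left out, -1.72 with isolated 3 left out and -0.33 with both left out, so its direction rested on single libraries.

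The Penk level of a library followed its Drd2 level. Ordered by Drd2, the libraries ran control 3, isolated 2, isolated 1, control 1, isolated 3 and control 2, and the order by Penk was the same in all 6. The correlation of log2 CPM was r = 0.941 (exact permutation p = 0.00139, adjusted over the 7 members p = 0.00972) with Spearman's rho at 1 (exact permutation p = 0.00278, adjusted p = 0.0194). In deviations from the group means, which remove any difference between isolated and control libraries, r was 0.957 with an exact permutation p of 0.0278, the smallest that permutation within groups can give, and an adjusted p of 0.0972. Without control 2 and control 3, the 2 libraries farthest from the median of Drd2, r was 0.99 (exact permutation p = 0.0417, adjusted p = 0.194, n = 4). Leaving out 1 library at a time gave r between 0.928 and 0.993, with an adjusted p of 0.0292 without control 1 and above 0.05 without any of the other 5 libraries. The smallest exact permutation p with 5 libraries is 0.00833, which adjusts to 0.0583 where 1 member alone has it. Penk had it without isolated 1, isolated 2, control 1 or control 3, and Pdyn shared it only without control 1, which lowered the adjusted p. Without isolated 3 or control 2 the exact permutation p of Penk was 0.0417 or 0.0333. Drd1, the dopamine receptor of the other class of striatal projection neuron, stood at 16.2, 21.6 and 85.4 CPM in isolated and 35.6, 122.6 and 11.4 CPM in control libraries. Adora2a, the adenosine receptor that marks the Drd2 class, stood at 8.25, 4.95 and 68.9 CPM in isolated and 23.7, 107 and 2.20 CPM in control libraries. Penk, Drd2, Drd1 and Adora2a were thus highest in control 2, next in isolated 3 and lowest in control 3. In bulk tissue, fewer cells of a type and less RNA per cell cannot be told apart.

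The amount of Penk that came with each unit of Drd2 was described by increments and by plain ratios. Above the level of control 3, which had only 11 expected counts of Drd2, each further FPKM of Drd2 came with 4.98, 3.61 and 5.52 FPKM of Penk in isolated 1 to 3, against 4.39 and 5.93 FPKM in control 1 and control 2. Control 3 was taken as the base after its values were seen, and this takes the library with the outlying plain ratio out of the comparison. The plain ratio of Penk to Drd2 in FPKM was 9.42, 8.43 and 6.10 in the isolated libraries, against 5.97, 6.36 and 54.9 in the control libraries, so the library with the least Drd2 kept 21.4 FPKM of Penk. Outside control 3, the ratios ran from 5.97 to 9.42 and the increments from 3.61 to 5.93, a similar spread. With the Drd2 level as a covariate, the log2 difference of Penk was -0.44 with a standard error of 0.28, smaller than the 0.95 without it (edgeR, unadjusted p = 0.16, adjusted p = 0.84), and with that covariate 944 genes (6.22%) had an unadjusted p under 0.05 and 0 an adjusted one. With the mean level of the 15 tested striatal markers as the covariate in place of Drd2, the log2 difference of Penk was -0.07 with a standard error of 0.10 (edgeR, unadjusted p = 0.54, adjusted p = 0.96), so the -0.44 depended on which striatal measure was used. Among all tested genes, 0.712% had a correlation with Drd2 at least as high as that of Penk, and 0.481% a range at least as wide.

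Pdyn, the prodynorphin gene (Entrez Gene 18610, chr2:129686549-129699938), was flat in 4 libraries and raised in the others. It stood at 26.9, 26.8 and 37.6 CPM in isolated 1 to 3, against 25.7, 45.4 and 25.7 CPM in control 1 to 3. The same libraries as for Penk, isolated 3 and control 2, were the high ones, and the remaining 4 lay within 25.7 to 26.9 CPM although their Drd2 levels ran from 0.605 to 19.1 CPM. Its log2 difference was -0.08 (standard error 0.24, 95% interval -0.65 to 0.48; edgeR, adjusted p = 0.999). Leaving out control 2 gave 0.24, and leaving out isolated 3 as well gave 0.06, with a standard error of 0.08. The correlation with Drd2 over all 6 libraries was r = 0.766 and rho = 0.829 (exact permutation p = 0.0792 and 0.0583, adjusted p = 0.277 and 0.204). Without control 1 the adjusted p of r was 0.0292, with r at 0.884, and without control 2 r was 0.675.

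Pnoc, which encodes the precursor of nociceptin (Entrez Gene 18155, chr14:65400673-65425564), was the member with the smallest unadjusted p. It stood at 5.81, 5.49 and 6.66 CPM in isolated 1 to 3, against 5.24, 4.41 and 4.78 CPM in control 1 to 3, so that every isolated library lay above every control library. Behind these levels were 101 to 125 expected counts in isolated and 81.2 to 96.9 in control libraries, and the groups were also apart in FPKM. The means were 5.99 ± 0.60 CPM in isolated and 4.81 ± 0.42 CPM in control libraries (SD, n = 3 each). The log2 difference was 0.31 with a standard error of 0.13, a fold of 1.24 with a 95% interval from 1.004 to 1.54 (edgeR, unadjusted p = 0.046, adjusted p = 0.999), which failed the correction. Among all tested genes, 231 (1.52%) had an unadjusted p under 0.05 in the same direction, and 625 (4.12%) had isolated libraries wholly above the control libraries. Without control 2 and isolated 3 the log2 difference was 0.17 (unadjusted p = 0.31), a smaller value by more than 1.5 times.

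Pnoc did not follow Drd2, with r = 0.185 and rho = -0.0286 (exact permutation p = 0.724 and 1, adjusted p = 0.844 and 1), and its r ranged from -0.227 to 0.82 as single libraries were left out. Of 14 interneuron markers, 8 were higher and 6 lower in isolated libraries, with a summed level of 1200 to 1359 CPM in isolated and 1202 to 1318 CPM in control libraries. The sum mixes genes that ran with Drd2, such as Gad1 (r = 0.871), Gad2 (0.807) and Slc32a1 (0.937), with others that ran against it. Among the latter were Cck (-0.874) and Vip (-0.84), so an even sum does not show even interneuron content. The marker whose groups did not overlap was Adarb2, at 22.9 ± 0.72 CPM in isolated and 25.3 ± 1.15 CPM in control libraries (SD, n = 3 each; edgeR, unadjusted p = 0.069, adjusted p = 0.999). Of all tested genes, 717 (4.73%) were apart in that direction. Isolated 3, which had the highest Pnoc level, was also the highest in 6 markers of the lateral septum, a neighbouring region of the forebrain, with a summed level of 43.5, 38.3 and 93.7 CPM in isolated libraries, against 36.2, 41.7 and 37.6 CPM in control libraries. All 5 of the septal markers that passed the filter were higher in isolated libraries, and Prdm12, the one that did not pass, was under 1 CPM in all but isolated 3. Their part in the Pnoc difference was not tested.

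**Figure D2:**
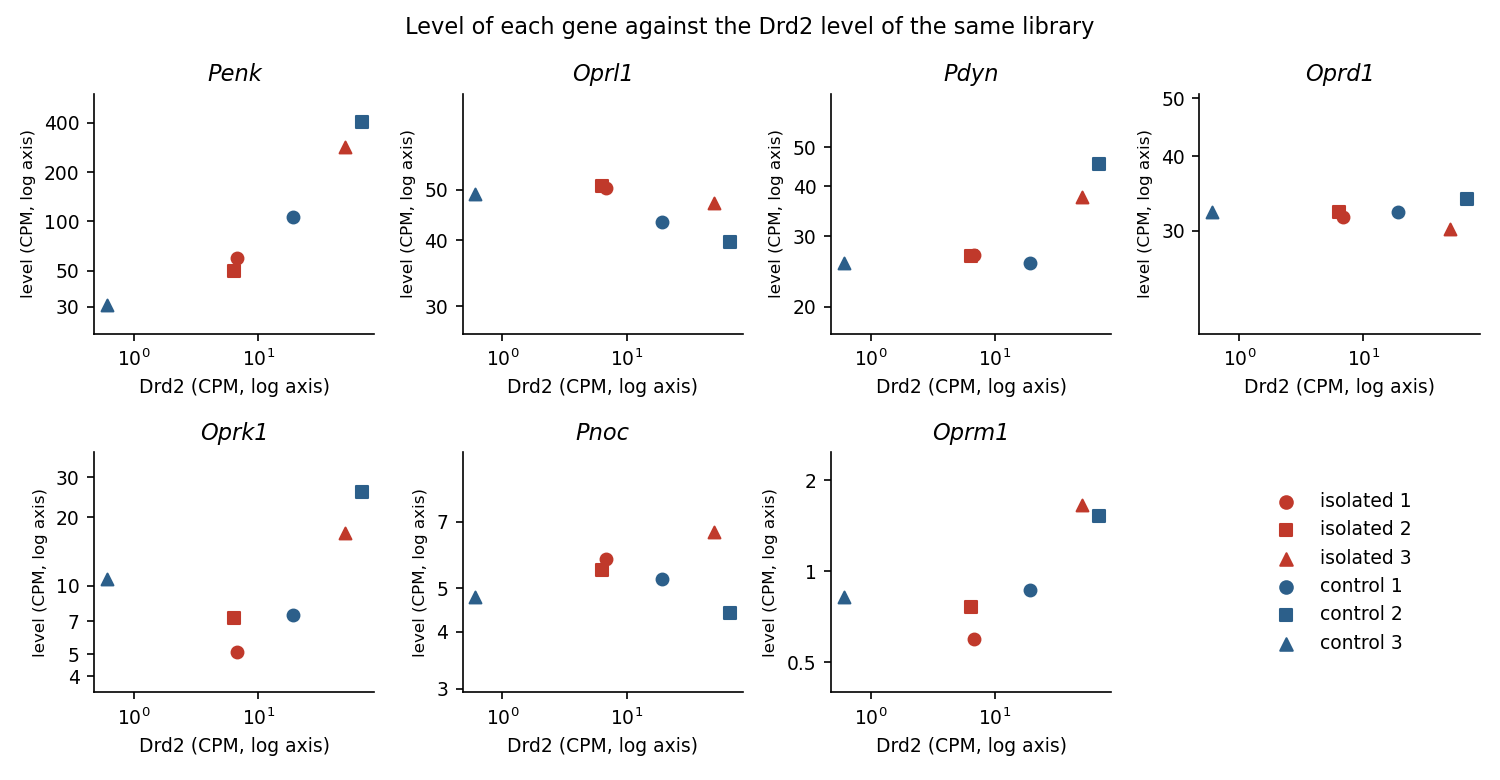
Level of each opioid gene against the Drd2 level of the same library, both in CPM on log axes (red, isolated; blue, control; 1 point per library). Penk climbs with Drd2 over all 6 libraries, Pdyn is raised only in isolated 3 and control 2, the 2 libraries highest in Drd2, and Oprd1 lies between 30.3 and 33.9 CPM throughout.

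Among the receptors, Oprm1, the mu receptor and main target of morphine (Entrez Gene 18390, chr10:6758593-7038209), had the fewest counts. It had 11.02, 14 and 31.01 expected counts in isolated 1 to 3, against 16.01, 28.03 and 15.02 in control 1 to 3, or 0.597, 0.761 and 1.65 CPM against 0.865, 1.52 and 0.825 CPM. Isolated 3 and control 2 were again the high libraries, and the groups overlapped. Its log2 difference was -0.09 (standard error 0.44, 95% interval -1.12 to 0.93; edgeR, adjusted p = 0.999), and it was positive without isolated 1 (0.17), without isolated 2 (0.07) or without control 2 (0.25). Without both control 2 and isolated 3 it was -0.31 with a standard error of 0.38. Its correlation with Drd2 was r = 0.705 and rho = 0.714 (exact permutation p = 0.124 and 0.136, adjusted p = 0.28 and 0.238). Of the Oprm1 exon bases 1.19% overlap the antisense gene Ipcef1, which stood at 125 to 143 CPM in isolated and 96.3 to 134 CPM in control libraries, far above Oprm1, and reads of the pair cannot be told apart there.

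Oprd1, the delta receptor for enkephalins (Entrez Gene 18386, chr4:132110188-132144486), was the steadiest member. It stood at 31.6, 32.2 and 30.3 CPM in isolated 1 to 3, against 32.3, 33.9 and 32.3 CPM in control 1 to 3. The highest library exceeded the lowest by 1.12-fold, a range that 84.8% of the tested genes equalled or exceeded. The isolated libraries lay below the control libraries in CPM, as for 717 of all tested genes (4.73%), but by a narrow margin that did not hold in expected counts or FPKM, where the groups overlapped. The log2 difference was -0.07 with a standard error of 0.06, a fold of 0.956 with a 95% interval from 0.864 to 1.06 (edgeR, adjusted p = 0.999), and it was -0.02 without control 2 and isolated 3. Its correlation with Drd2 was r = 0.0156 and rho = 0.2 (exact permutation p = 0.963 and 0.714, adjusted p = 0.963 and 0.833).

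Oprk1, the kappa receptor for dynorphin (Entrez Gene 18387, chr1:5588450-5606134), had the widest range of the receptors. It stood at 5.10, 7.23 and 16.99 CPM in isolated 1 to 3, against 7.46, 25.8 and 10.7 CPM in control 1 to 3. Control 2 and isolated 3 were highest, as for Penk, but control 3, the library lowest in Drd2, came next and not last. Oprk1 had a log2 difference of -0.58 (standard error 0.55, 95% interval -1.87 to 0.70; edgeR, adjusted p = 0.999). It was 0.11 without control 2, -1.25 without isolated 3 (unadjusted p = 0.046) and -0.56 without both, where the standard error was 0.23 and the unadjusted p 0.040 (edgeR, adjusted p = 0.9999). Its correlation with Drd2 was r = 0.53 and rho = 0.6 (exact permutation p = 0.282 and 0.242, adjusted p = 0.395 and 0.338). Without control 3 it was r = 0.934 (exact permutation p = 0.0167, adjusted p = 0.0583), and without control 2 it was 0.246.

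Control 3 and control 2 were also the libraries highest in the summed markers of the claustrum and endopiriform nucleus, a thin sheet of neurons under the lateral cortex. The summed level of the 5 of 6 such markers that were listed was 132, 137 and 155 CPM in isolated libraries, against 152, 307 and 202 CPM in control libraries. Singly, Nr4a2 and Nr2f2 were slightly higher in control 1 (34.16 and 11.14 CPM) than in control 3 (33.92 and 10.83 CPM). All 5 were lower in isolated libraries by their log2 difference, with a median of -0.56. Of them 3, Nr4a2, Ntng2 and Nr2f2, lay wholly lower in isolated libraries, as did 717 of all tested genes (4.73%). Their unadjusted p in edgeR was 0.018, 0.0019 and 0.0094. None of the 5 markers was called, with an adjusted p of 0.999 in edgeR, and none was at 0. Their part in the Oprk1 values was not tested.

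Oprl1, the nociceptin receptor (Entrez Gene 18389, chr2:181715000-181720985), was the most abundant of the receptor genes and lay lowest where Drd2 was highest in each group. It stood at 50.3, 50.8 and 47.2 CPM in isolated 1 to 3, against 43.4, 39.8 and 49.0 CPM in control 1 to 3. Within each group, the library with the most Drd2 had the least Oprl1, and control 3 lay among the isolated libraries. The means were 49.5 ± 1.95 CPM in isolated and 44.1 ± 4.62 CPM in control libraries (SD, n = 3 each). Its log2 difference was 0.17 (standard error 0.08, 95% interval -0.03 to 0.36; edgeR, unadjusted p = 0.087, adjusted p = 0.999). With the Drd2 level as a covariate it was 0.19 with a standard error of 0.05 and an unadjusted p of 0.0078, in a fit where 6.22% of all tested genes were under 0.05, and the adjusted p was 0.71. With the striatal marker level as covariate it was 0.16 (edgeR, unadjusted p = 0.016, adjusted p = 0.79), and without control 2 and isolated 3 it was 0.13 (unadjusted p = 0.15, adjusted p = 0.9999).

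The correlation of Oprl1 with Drd2 was r = -0.656 and rho = -0.771 over all libraries (exact permutation p = 0.16 and 0.103, adjusted p = 0.28 and 0.238). In deviations from the group means r was -0.984, with an exact permutation p of 0.0278, the smallest possible there, and an adjusted p of 0.0972. Without the 2 libraries farthest from the median of Drd2 it was -0.613. Markers of cortical excitatory neurons differed between the libraries too, with a summed level of 7352, 7321 and 6011 CPM in isolated libraries, against 7133, 6172 and 7743 CPM in control libraries, lowest in isolated 3 and control 2. Most of that sum was Camk2a, and Foxp2 ran the other way, highest in isolated 3 (37.9 CPM) and control 2 (34.6 CPM). Of the 11 such markers 6 were higher and 5 lower in isolated libraries and none was at 0. Fezf2 was among the higher (log2 difference 0.50, unadjusted p = 0.040). Rorb was among the lower, without overlap (-0.46, unadjusted p = 0.010), each with an adjusted p of 0.999 in edgeR. The part of the excitatory markers in the Oprl1 values was not tested.

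**Figure D3:**
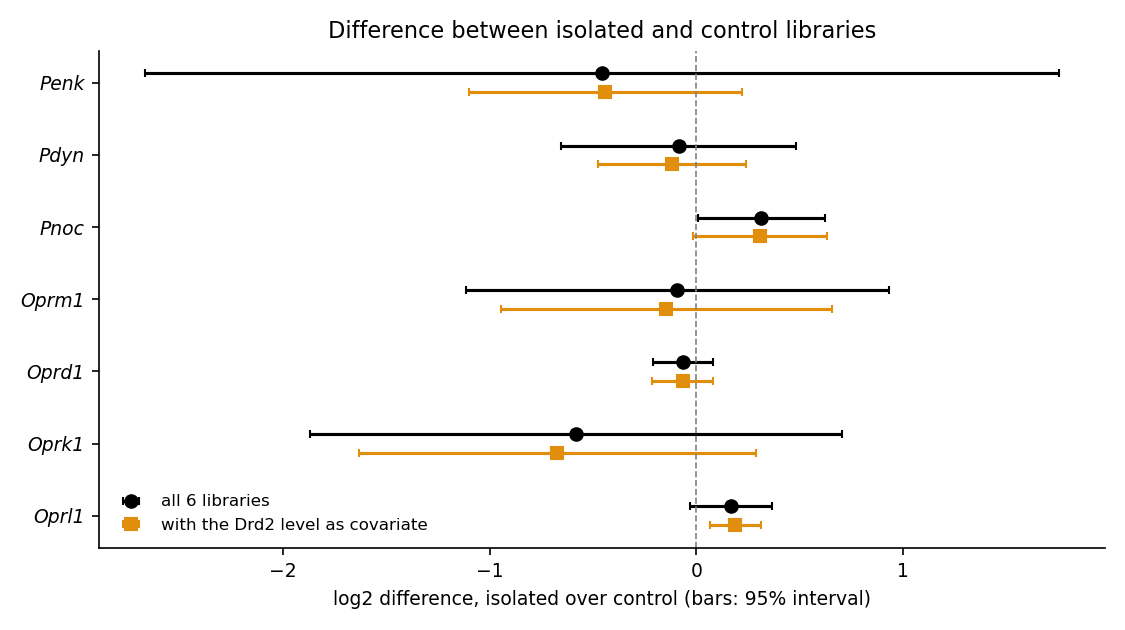
Log2 difference of each gene between isolated and control libraries, isolated over control, with 95% intervals, from the comparison of all 6 libraries (black) and with the Drd2 level as a covariate (orange). The covariate narrows the interval of Penk most, from a standard error of 0.95 to 0.28, and the intervals of Penk, Pdyn, Oprm1, Oprd1 and Oprk1 include 0 both ways.

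Taken over the libraries, Penk, Pdyn, Oprm1 and Oprk1 were high in isolated 3 and control 2, and Pnoc, Oprd1 and Oprl1 were not high in both. Penk and Pdyn correlated at r = 0.91 over the 6 libraries, Oprm1 and Oprk1 at 0.931, Pdyn and Oprk1 at 0.895, Penk and Oprm1 at 0.873 and Penk and Oprk1 at 0.766, as descriptions of these libraries, in which the striatal markers vary too. The receptor Oprl1 ran against them, at -0.756 with Penk. Pnoc and Oprd1 were opposed to each other, at -0.946, within narrow ranges of 1.51-fold and 1.12-fold. The summed level of the 3 precursor genes was 7.40-fold higher in control 2, the highest library, than in control 3, the lowest, and that of the 4 receptor genes spanned 1.20-fold over the libraries. The first sum was carried by Penk, which spanned 13.1-fold, against 1.77-fold for Pdyn and 1.51-fold for Pnoc. Of the receptors, Oprk1 spanned 5.06-fold and Oprm1 2.77-fold, against 1.28-fold for Oprl1 and 1.12-fold for Oprd1, so neither sum stands for its members.

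**Figure D4:**
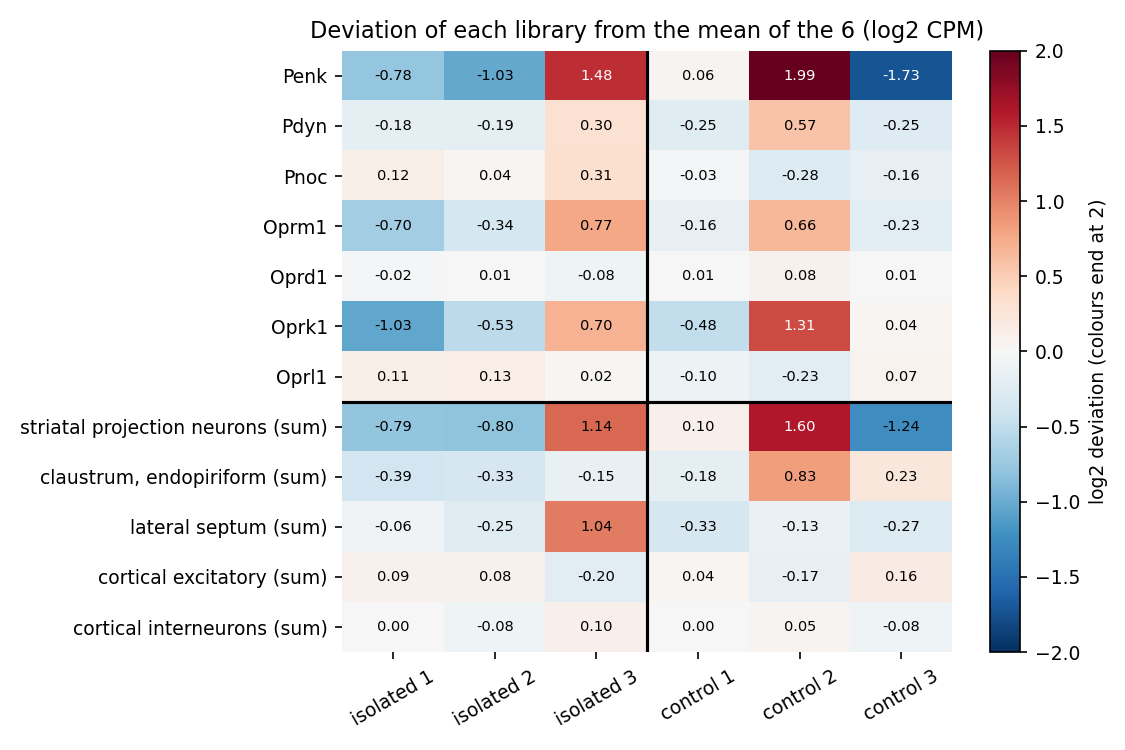
Deviation of each library from the mean of the 6 libraries in log2 CPM, for the 7 opioid genes (upper rows) and for the summed level of 5 lists of cell type markers (lower rows), with the isolated libraries left of the control libraries. Penk runs from -1.73 in control 3 to 1.99 in control 2, alongside the striatal sum from -1.24 to 1.60, and Oprd1 stays within -0.08 to 0.08.

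The genes most like each member over the 6 libraries were named by the highest correlation of log2 CPM, as a description. The 5 most like Penk were Pde10a, Tac1, Lingo3, Cbr3 and Gng7, at r = 0.997 to 0.999. Pde10a is the striatal phosphodiesterase, and Tac1 encodes the precursor of substance P. Of the 15 striatal markers tested, 14 correlated with Penk above 0.95. The lowest was Drd2, at 0.941, so Penk followed every other tested striatal marker more closely than Drd2. With the other 6 members, 0 of the 15 markers were above 0.95, although their median correlation was 0.886 with Pdyn, 0.886 with Oprm1 and 0.78 with Oprk1. The numbers of all genes above 0.95 were 246 for Penk, 200 for Pdyn, 83 for Oprk1, 79 for Oprm1, 86 for Oprl1, 32 for Pnoc and 23 for Oprd1. The 5 most like Pdyn were Cap1, Dhx32, Krt10, Nle1 and Ppp1r7, and those most like Oprk1 were Nf2, Epyc, Son, Ptpn13 and Rp2. For Oprm1 they were Spint1, Fam184a, Kars, Krt9 and Hmbox1, and for Oprl1 Zkscan4, Gm13363, Arfgap1, Psmc4 and Diras2. For Pnoc they were Gadd45gip1, Lrrc36, Vps51, Elmod3 and Puf60, and for Oprd1 Gm17644, Mier3, Anp32a, Vwf and H2-Ab1.

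The genes that make, cut and transmit the opioid signal were followed in 10 lists of 80 symbols. These stood for 78 genes, since Adrbk1 and Adrbk2 are older symbols of Grk2 and Grk3, and all 78 were listed and tested. None was called in edgeR at an adjusted p under 0.05, 1 had an unadjusted p under 0.05 (1.28%, against 3.53% of all tested genes), and 2 did not overlap between the groups (2.56%, against 8.85%). By their log2 difference 27 were higher and 51 lower in isolated libraries, with a median of -0.03, and 34.6% were higher, against 49.2% of all tested genes. Lists of glial and vascular markers also leaned between the same groups, with 0 genes called. All 8 oligodendrocyte markers were higher, with a median log2 difference of 0.42 and a summed level of 3624 to 6672 CPM in isolated and 2803 to 4667 CPM in control libraries. All 7 astrocyte markers (4168 to 4337 CPM in isolated, 4478 to 4725 CPM in control libraries) and all 7 endothelial and pericyte markers (276 to 301 CPM in isolated, 308 to 344 CPM in control libraries) were lower, as were 6 of 7 microglial ones (292 to 309 CPM in isolated, 305 to 336 CPM in control libraries). None of these markers was at 0 in any library, and their part in the lean of the pathway lists was not tested. The gene with the unadjusted p under 0.05 was Rgs4, which shortens signalling by opioid and other receptors that use inhibitory G proteins. Rgs4 stood at 558, 479 and 515 CPM in isolated libraries, against 574, 665 and 590 CPM in control libraries, without overlap. Its log2 difference was -0.24 with a standard error of 0.08 (edgeR, unadjusted p = 0.021, adjusted p = 0.999), and its correlation with Drd2 was 0.153.

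On the ligand side, Pomc, the precursor of beta-endorphin, was low, at 0.597 to 0.905 CPM in isolated and 0.879 to 1.20 CPM in control libraries. This was near the level of Oprm1, at 0.597 to 1.65 CPM in isolated and 0.825 to 1.52 CPM in control libraries. Ackr3, a scavenger receptor for opioid peptides, stood at 8.78 ± 0.92 CPM in isolated and 10.7 ± 1.41 CPM in control libraries (SD, n = 3 each), with a log2 difference of -0.28 (unadjusted p = 0.060, edgeR, adjusted p = 0.999). By their log2 difference all 4 genes of that list of further ligands and receptors were lower in isolated libraries, with overlapping groups for each. Of 13 precursor-processing genes, 7 were higher and 6 lower, and the summed level lay between 4453 and 4621 CPM in isolated and between 4388 and 4571 CPM in control libraries. Cathepsin L (Ctsl), which can cut proenkephalin, stood at 59.8, 60.9 and 59.7 CPM in isolated libraries, against 66.7, 62.0 and 63.8 CPM in control libraries, without overlap, at a log2 difference of -0.09 (edgeR, unadjusted p = 0.108, adjusted p = 0.999). Of 12 peptide-degrading enzymes, 4 were higher and 8 lower, and the smallest p was that of Dpp3, an enkephalin-degrading peptidase, with a log2 difference of 0.09 (edgeR, unadjusted p = 0.227).

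On the signalling side, the split was 2 higher and 9 lower for 11 inhibitory G protein subunits and 2 higher and 7 lower for 9 RGS proteins. It was 3 higher and 4 lower for 7 arrestins and receptor kinases, 2 and 2 for 4 GIRK potassium channels, 0 and 4 for 4 presynaptic calcium channel genes, 6 and 2 for 8 adenylyl cyclases, and 1 and 5 for 6 receptor partners. The genes with the smallest unadjusted p of these lists, apart from Rgs4, were Gnai3 at a log2 difference of -0.10, Arrb2 (beta-arrestin) at 0.15, Kcnj6 at 0.12, Cacna2d1 at -0.16, Adcy9 at 0.17 and Rtp4, a chaperone of opioid receptor dimers, at -0.36, each with an adjusted p of 0.999 in edgeR. Of the 78 genes, 9 had a correlation with Drd2 above 0.8 (11.5%, against 6.27% of all tested genes) and 12 one below -0.8 (15.4%, against 6.37%). The 9 were Rgs9 (r = 0.971), Gnai2 (0.97), Gng7 (0.921), Ogfr (0.906), Mme (0.90), Adcy5 (0.877), Gnb5 (0.832), Kcnj5 (0.825) and Scg2 (0.823), of which Rgs9 and Adcy5 are also on the striatal list. Their ranges over the libraries ran from 1.10-fold for Gnai2 to 4.95-fold for the enkephalin-degrading peptidase Mme, 6.43-fold for the G protein subunit Gng7 and 16-fold for Rgs9. Mme stood at 9.01, 9.52 and 26.5 CPM in isolated libraries, against 16.97, 39.15 and 7.92 CPM in control libraries. The 12 below -0.8 were Adcy2 (r = -0.955), Pcsk2 (-0.948), Gnai1 (-0.921), Arrb1 (-0.919), Gprasp2 (-0.865), Kcnj6 (-0.861), Kcnj3 (-0.831), Pam (-0.827), Wls (-0.818), Cacna1b (-0.807), Cacna2d1 (-0.806) and Scg5 (-0.803). The ranges of these 12 ran from 1.07-fold for Gprasp2 to 1.53-fold for Kcnj6. The limit of 0.8 was chosen after the values were seen, and the part of the striatal markers in these correlations was not tested.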

How the data were processed

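RNA of the medial prefrontal cortex was sequenced on a BGISEQ-500 with 50-base reads, per the labels' protocols. Each library has a deposited table of expected counts, which need not be whole, and of FPKM values per gene. Per the submitters' processing notes, HISAT, Bowtie2, RSEM and the build mm10 were used, with no versions stated. A deposited table of the whole series was not used, since its 6 columns carry codes found in no label. Genes absent from a table were taken as 0, and an entry without a symbol held at most 0.00095% of reads.

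Expected counts were rounded and tested with edgeR 4.0.16 (R 4.3.3), filterByExpr (minimum count 10, total 15; 15169 genes kept, 4774 removed), TMM factors, the quasi-likelihood F-test of isolated over control without covariates, and Benjamini-Hochberg adjustment over all tested genes at 0.05. The standard error comes from the fold change and F. Correlations used log2 CPM (prior count 2) and exact two-sided permutation over 720 pairings, or 36 within groups. Alternatives were DESeq2 1.42.0, limma 3.58.1 (voom, and log2 of FPKM plus 1 or 0.1), RLE scaling, no filter, Drd2 or striatal covariates, a replicate block and leaving out libraries. The tests were checked on simulated data. Symbols and coordinates are from RefSeq GRCm38.p6, which matched 19899 of 19943 gene identifiers.

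The members and lists were chosen with earlier results of these data known. Text names all members, Drd2, Drd1, Adora2a, per pathway list the genes with an unadjusted p under 0.05 or else the smallest p, and the 5 genes most correlated with each member. Further genes were named for their values and not by this rule, such as pathway genes with a Drd2 correlation above 0.8 or below -0.8. The same holds for single interneuron, cortical excitatory and claustrum markers, Drd3, Prdm12 and Fkbp5.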

Additional observations from a re-analysis of the deposited data

How the results depend on the processing

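Under every alternative run, 0 of the 7 genes were called between isolated and control libraries. The number of genes called over the whole table was 0 in the main comparison and in every alternative except DESeq2, which gave 1. Leaving out 1 library at a time gave log2 differences from -1.72 to 0.94 for Penk, -0.27 to 0.24 for Pdyn, 0.23 to 0.38 for Pnoc, -0.65 to 0.25 for Oprm1, -1.25 to 0.11 for Oprk1, -0.09 to -0.04 for Oprd1 and 0.10 to 0.25 for Oprl1. The upper ends of Penk, Pdyn, Oprm1 and Oprk1, all without control 2, had the opposite sign, as had Oprm1 without isolated 1 (0.17) or isolated 2 (0.07) and Pdyn without control 2 and isolated 3 (0.0607). The other scalings, filters and covariates kept the direction of all 7.

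For the correlation with Drd2, leaving out 1 library gave 0.928 to 0.993 for Penk, 0.675 to 0.884 for Pdyn, -0.227 to 0.82 for Pnoc, 0.584 to 0.949 for Oprm1, 0.246 to 0.935 for Oprk1, -0.655 to 0.616 for Oprd1 and -0.793 to -0.458 for Oprl1. Penk missed the threshold in deviations from the group means (0.957), without the 2 libraries farthest from the median (0.99), and without any 1 library but control 1, settings with fewer libraries or permutations. In these settings the smallest possible p, adjusted over the members, cannot pass for 1 gene alone. Without control 1, Pdyn reached that smallest p too. Oprd1 had -0.728 without the 2 farthest libraries, and -0.0142 without isolated 1. Pnoc changed sign without isolated 3 or control 3 (-0.227 each).

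Same-numbered libraries did not deviate together (correlations of 0.0254, -0.269 and -0.492), and no library correlated best with its own number. With the number as a replicate block, 0 genes were called, 331 had an unadjusted p under 0.05 against 535 without it, and Penk was at -0.43, Pnoc at 0.31 and Oprl1 at 0.17. Oprm1 had the fewest counts, with 11.02 to 31.01 expected counts in isolated and 15.02 to 28.03 in control libraries, and the shares of counting error and of the spread between libraries in its error were not separated.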
